A study of Homo sapiens with 6 samples.

Results

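The genes described here drive cells into and out of mitosis: the cyclins CCNA2, CCNB1, CCNB2 and CCNF, the kinase CDK1, the phosphatases CDC25B and CDC25C, the kinase WEE1, the phosphatase CDKN3 and the anaphase activator CDC20. They were chosen by symbol, with earlier results of these data known, and matched by gene identifier. They make up 10 of the 39020 genes that any of the 6 deposited tables lists. All 10 stood in both RNA-seq tables, and 8 stood in at least 1 iCLIP table. CCNA2 and CCNB1 were not listed in any of the 4 iCLIP tables.

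Cyclin B bound to CDK1 is the kinase that starts mitosis. WEE1 holds CDK1 inactive by phosphorylating it, CDC25 phosphatases remove that phosphate, and CDC20 directs the anaphase-promoting complex to destroy the cyclins so that mitosis can end. After DNA damage this switch is held back at the G2 checkpoint, in part by blocking CDC25 and in part, through p53 and p21, by lowering the transcription of many genes of G2 phase and mitosis.

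All samples were U2OS, a human osteosarcoma cell line. For iCLIP, cells carried a stably transfected FLAG-tagged TIRR, a protein that binds the repair factor 53BP1. RNA crosslinked to it by ultraviolet light was recovered with FLAG antibodies and sequenced from 2 libraries of irradiated cells, which had been given an X-ray dose of 5 Gy and 4 h of recovery, and 2 libraries of cells with no treatment. RNA-seq used U2OS of wild-type genotype, with 1 library of cells given the same dose and recovery and 1 of cells with no treatment. The labels name X-rays for both assays, whereas gamma radiation is named in the series' design for RNA-seq. Empty-vector cells were not used here, so no background was subtracted from the iCLIP values. Nothing in the labels says that the replicates were separate cultures, and p-values measure only the spread among the 4 libraries, which can be technical.

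The irradiated iCLIP libraries held 400723 and 664777 counts on genes and the untreated ones 781997 and 799709, so a member with 10 to 30 counts is measured coarsely. The RNA-seq libraries held 13023903 (irradiated) and 13015406 (untreated) counts on genes. Of 8 mesenchymal and osteoblast-lineage markers, COL1A1, SPARC, VIM and FN1 each had at least 22704 RNA-seq counts in both libraries, whereas COL1A2 and TWIST1 had at most 6. In irradiated and untreated cells the 4 blood markers summed to 13 and 12 counts, 2 of them at 0 in both, and the epithelial markers to 6165 and 6509, nearly all of it keratins KRT8 and KRT18. The endothelial pair summed to 39 and 56. MKI67, a marker of cycling cells, had 3719 counts in irradiated and 5349 in untreated cells, and TOP2A had 7082 and 8345. PCNA, the other proliferation marker, went the other way, with 4865 counts in irradiated and 3245 in untreated cells, and the 3 summed to 15666 and 16939. Their part in the results was not tested. In bulk libraries, fewer cells in G2 phase and mitosis and less RNA per such cell cannot be told apart.

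The first comparison asked how the members' RNA levels stood 4 h after the dose. All 10 members had a ratio of irradiated to untreated RNA-seq counts under 1, as did 50.5% of all genes. Their median was 1.84-fold lower in irradiated cells (median log2 ratio -0.88, against -0.00253 over 12977 genes with at least 100 counts in the higher library). Of the 10, 4 members (CDC25C, CDC20, CCNF and CCNB1) were at least 2-fold lower with a 95% counting interval wholly beyond 1.5-fold, a size rule that 0.624% of the 12977 genes passed downward. The members were chosen with earlier results of these data known, so these shares beside all genes are descriptive. CDK1 itself stood apart from its partners, with a ratio of 0.947. With 1 library per condition there is no replicate check and no test, and the intervals cover counting error only.

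Of the 4 cyclins, CCNB1 and CCNF passed the size rule, and CCNA2 and CCNB2, with ratios of 0.544 and 0.546, did not. CCNB1 (ENSG00000134057, chromosome 5, 69167150 to 69178245, GRCh38.p14), the main cyclin of mitotic entry, had 1925 counts in irradiated and 4000 in untreated cells, a ratio of 0.476 (95% counting interval 0.450 to 0.503). These counts were 0.0148% of all gene counts in irradiated cells (exact Clopper-Pearson 95% interval 0.0141 to 0.0155) and 0.0307% in untreated cells (0.0298 to 0.0317). CCNB2 (ENSG00000157456, chromosome 15, 59105146 to 59125045), the Golgi-associated B-type cyclin, had 969 counts in irradiated and 1756 in untreated cells, a ratio of 0.546 (0.504 to 0.591). CCNB1 thus had the lower ratio of the B-type pair, with intervals that just failed to overlap.

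CCNA2 (ENSG00000145386, chromosome 4, 121816444 to 121823883), which acts in S phase and in G2, had 1360 counts in irradiated and 2471 in untreated cells, a ratio of 0.544 (0.509 to 0.582). It overlaps EXOSC9 in the RefSeq annotation. No source used here gives the strand setting, so reads of overlapping genes may not be told apart. CCNF (ENSG00000162063, chromosome 16, 2429447 to 2458854) encodes the substrate receptor of a ubiquitin ligase and does not activate a CDK. It had 903 counts in irradiated and 1943 in untreated cells, a ratio of 0.460 (0.424 to 0.498), the lowest of the 4 cyclins.

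CDK1 (ENSG00000170312, chromosome 10, 60778331 to 60794852), the catalytic partner of cyclins A and B, had 1578 counts in irradiated and 1647 in untreated cells. Its ratio of 0.947 had an interval of 0.884 to 1.02 that included 1, and it ranked 4762 from the lowest of the 12977 genes. The intervals of the other 9 members all lay below that of CDK1. An interval wholly below 1 was found for those 9 members and for 22.0% of all genes.

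The regulators of CDK1 spanned the widest range. CDC25C (ENSG00000158402, chromosome 5, 138285265 to 138338355), a phosphatase that activates CDK1 at mitotic entry, had 88 counts in irradiated and 267 in untreated cells, 3.07-fold lower (2.40 to 3.95). It ranked 16 from the lowest ratio of all genes and was the least abundant member. It overlaps FAM53C in the annotation. CDC25B (ENSG00000101224, chromosome 20, 3786951 to 3806115), the phosphatase that starts CDK1 activation at the centrosome, had 1443 and 2450 counts in irradiated and untreated cells, 1.72-fold lower (1.61 to 1.83). The intervals of the CDC25 pair did not overlap.

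WEE1 (ENSG00000166483, chromosome 11, 9573670 to 9589985), the kinase that opposes CDC25, was also lower, with 484 counts in irradiated and 751 in untreated cells, a ratio of 0.637 (0.567 to 0.715). CDC20 (ENSG00000117399, chromosome 1, 43358981 to 43363203) had 1452 counts in irradiated and 3666 in untreated cells, 2.55-fold lower (2.40 to 2.72), rank 30 from the lowest. CDKN3 (ENSG00000100526, chromosome 14, 54397007 to 54420218), a phosphatase that removes the activating phosphate of CDKs, had 966 and 1312 counts in irradiated and untreated cells, a ratio of 0.728 (0.669 to 0.792).

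**Figure D1:**
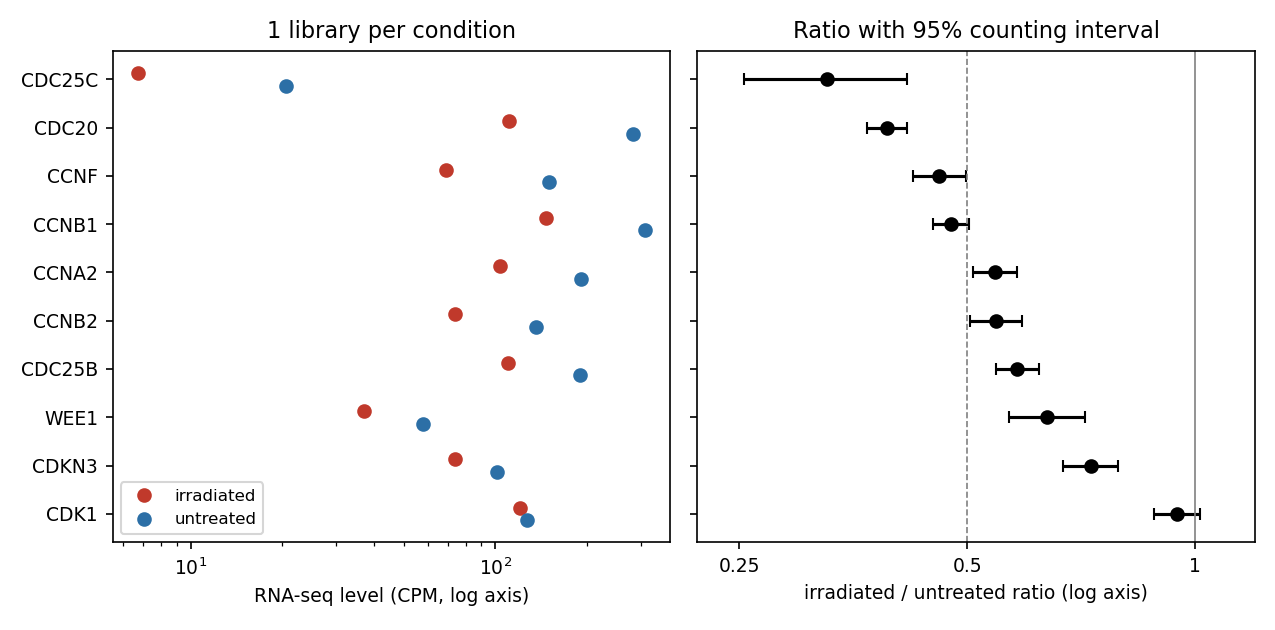
RNA-seq levels of the 10 members in CPM, counts per 1000000 after TMM scaling (left, log axis; 1 irradiated and 1 untreated library) and the ratio of irradiated to untreated with its 95% counting interval (right, log axis; solid line at 1, dashed line at 0.5), ordered from the lowest ratio. CDC25C lies lowest at 0.326 and CDK1 highest at 0.947, the only member whose interval includes 1.

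Per kb of annotated gene, introns included, the order of RNA-seq levels was close in both libraries. CDC20 stood highest, with 26.4 counts per 1000000 gene counts and kb in irradiated and 66.7 in untreated cells. CDC25C stood lowest, with 0.127 and 0.386. CCNB1 came next to CCNA2 in both, with 13.3 in irradiated cells, just below CCNA2, and with 27.7 in untreated cells, just above CCNA2 at 25.5. CDK1 ranked 4 of 10 in irradiated and 5 of 10 in untreated cells, with 7.33 and 7.66. This order depended on the division by length with introns. Not divided by length, CCNB1 stood highest, with 147 CPM in irradiated and 309 CPM in untreated cells, and CDC25C again lowest.

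The second comparison asked whether irradiation changed how much of these RNAs came down with TIRR. Of the 8 members that the iCLIP tables list, 7 had enough counts for the edgeR quasi-likelihood test, and 1 of the 7 passed at an adjusted p under 0.05: CDKN3 was lower in irradiated libraries. Across all genes, 323 of 9230 passed in either direction (3.50%), 224 upward (2.43%) and 99 downward (1.07%). Rises made up 69.3% of these calls, or 58.2% when scaled by library totals. The log2 fold change was negative for 6 of the 7 tested members, against 49.8% of all tested genes, and their median was -0.89, against 0.00157. These numbers are descriptive, since CCNB2 and CDKN3 passed the filter on low counts through their untreated libraries only and CDC25C through 1 irradiated and both untreated libraries.

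CDKN3 had 0 and 2 counts in the irradiated libraries and 14 and 17 in the untreated ones. The groups did not overlap, and the 0 allows up to 7.72 CPM (3 counts; CPM, counts per 1000000 after TMM scaling, which sets the bulk of genes equal between libraries). The summed counts were 9.98-fold lower in irradiated libraries (95% counting interval 2.54 to 86.0), with an edgeR quasi-likelihood adjusted p of 0.0274. The call rested on few counts. CDKN3 also passed the filter on low counts through its untreated libraries only, so a difference was built into its being tested. The log2 fold change was -3.20 ± 0.79 (SE) with all libraries, -2.58 without irradiated library 1 (edgeR adjusted p = 0.0951), -3.33 without untreated library 1 (edgeR adjusted p = 0.238) and -3.09 without untreated library 2 (edgeR adjusted p = 0.315). Without irradiated library 2, which leaves the library at 0, it was -6.69 (edgeR adjusted p = 0.0367), a fitted value that is no bound.

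CDC25C had 8 and 1 counts in the irradiated libraries and 23 and 27 in the untreated ones, or 11.1 ± 13.5 CPM in irradiated and 30.8 ± 2.95 CPM in untreated libraries (mean ± SD, n = 2 each). Both irradiated values lay below both untreated values, but they differed widely from each other. With edgeR the log2 fold change was -1.79 ± 0.59 (SE, adjusted p = 0.122). Its size turned on single irradiated libraries: the log2 fold change was -0.58 without that library and -4.19 without irradiated library 1, where the edgeR adjusted p was 0.000101.

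CDC25B had 9 and 11 counts in the irradiated libraries and 25 and 33 in the untreated ones. In CPM these were 23.1 and 16.8 in irradiated and 31.3 and 40.3 in untreated libraries, with no overlap. The edgeR test gave -0.89 ± 0.37 on the log2 scale and did not pass (SE, adjusted p = 0.265). CDC25B had the highest mean level per kb of the 8 in untreated libraries.

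CCNB2 had 0 and 7 counts in the irradiated libraries and 16 and 12 in the untreated ones. The irradiated values lay below the untreated ones. By edgeR the log2 fold change was -1.36 ± 0.67 and did not pass (SE, adjusted p = 0.368), and it was -0.68 without irradiated library 1, the library with 0 counts. Without irradiated library 2 it was -6.55 (edgeR adjusted p = 0.0661), a fitted value against a lone library at 0 that is no bound. CCNF had 9 and 16 counts in irradiated and 20 and 26 in untreated libraries, or 23.8 ± 0.941 CPM and 28.4 ± 4.74 CPM (SD, n = 2 each). The higher irradiated value, 24.5 CPM, lay just under the lower untreated one. By edgeR the log2 fold change was -0.24 ± 0.37 (SE, adjusted p = 0.840).

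CDK1 had 8 and 14 counts in the irradiated libraries and 16 and 28 in the untreated ones, or 21.0 ± 0.596 CPM and 27.1 ± 10.0 CPM (SD, n = 2 each). The irradiated values, 20.6 and 21.4 CPM, both lay between the untreated values. By edgeR the log2 fold change was -0.36 ± 0.40 (SE, adjusted p = 0.759), and it was 0.07 without untreated library 2. WEE1 had 6 and 17 counts in irradiated and 19 and 16 in untreated libraries, and the groups overlapped. By edgeR its log2 fold change was 0.02 ± 0.41 (SE, adjusted p = 0.992), with values of either sign, -0.48 to 0.27, over the alternatives. The counting interval of its summed ratio, 1.02, ran between 0.576 and 1.78, so changes within that range could not be detected at this depth.

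CDC20 had 2 and 0 counts in the irradiated libraries and 3 and 4 in the untreated ones and was not tested. The ratio of its sums was 0.444 (95% counting interval 0.0450 to 2.33). The groups of 5 of the 7 tested members did not overlap and lay lower in irradiated libraries. The same held for 22.0% of all tested genes (44.0% did not overlap in either direction). Of these 5, CCNB2 and CDKN3 passed the filter on low counts through their untreated libraries only. CDC25C passed it through 1 irradiated and both untreated libraries. The share of members is therefore descriptive. Summed over all 8 listed members, tested or not, there were 105 and 102 counts per 1000000 gene counts in the irradiated libraries and 174 and 204 in the untreated ones.

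**Figure D2:**
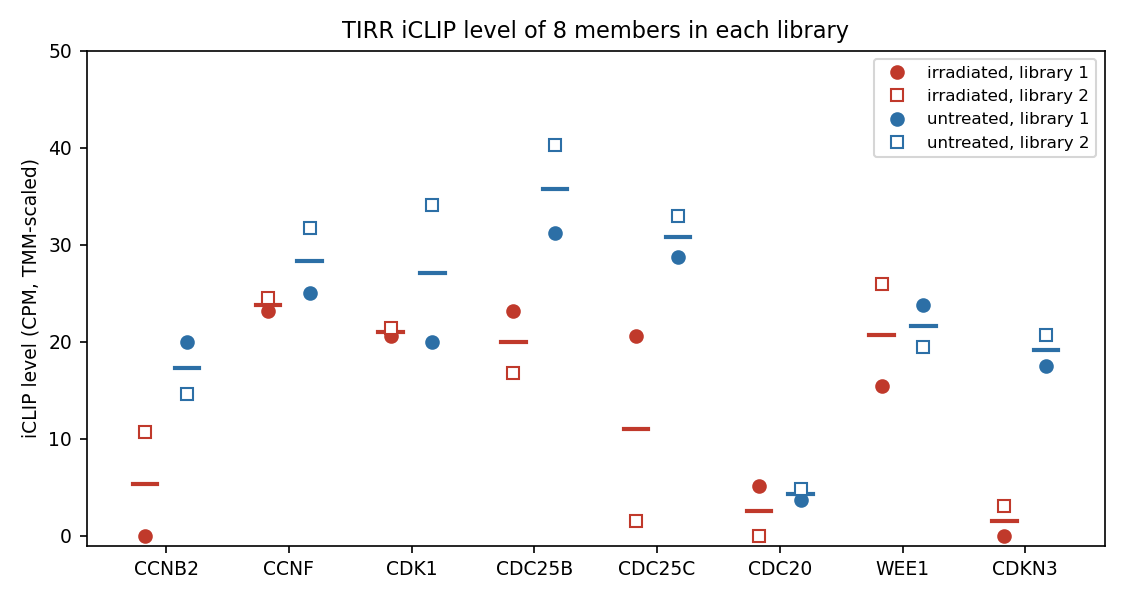
TIRR iCLIP levels (TMM-scaled CPM) of the 8 members listed in the iCLIP tables, with 1 point per library (circles library 1, squares library 2) and a bar at the mean of each pair, irradiated left of untreated. CDKN3, with 0 and 3.06 CPM in irradiated and 17.5 and 20.7 CPM in untreated libraries, is the member that passed the test. It passed the filter on low counts through its untreated libraries only.

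The absence of CCNA2 and CCNB1 from all 4 iCLIP tables was not read as a count of 0. By contrast, CCNB2, CDC20 and CDKN3 were each listed in 3 of the 4 iCLIP tables. Their absence from the remaining table was read as a count of 0. Of 3090 genes with at least 1000 counts in the untreated RNA-seq library, 642 (20.8%) stood in no iCLIP table, among them COL1A1 and SPARC. Among genes of 5 to 15 kb, the size class of both cyclins, 140 of 586 (23.9%) were not listed, and the listed ones had a median of 59 iCLIP counts summed over the 4 libraries. The reason was not tested.

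Set side by side, the summed iCLIP counts of the 8 listed members had a ratio of 0.572 (95% counting interval 0.455 to 0.713) and their RNA-seq counts a ratio of 0.565 (0.550 to 0.581). These sums weigh the members differently. CDC20 gave 3666 of 13792 untreated RNA-seq counts but 7 of 299 untreated iCLIP counts. The closeness of the summed ratios therefore does not carry over to single members. For 6 of the 8, the RNA-seq ratio lay inside the counting interval of the iCLIP ratio. Some of these intervals were too wide to tell much (CDC20 0.0450 to 2.33, WEE1 0.576 to 1.78). The same share over all genes was not worked out. The iCLIP replicates scattered more widely than these intervals assume, with a variance 2.12 (irradiated) and 1.51 (untreated) times that of pure counting. CCNF was lower in RNA-seq (0.460) than its iCLIP interval reached (ratio 0.844, interval 0.497 to 1.40), a narrow gap that wider intervals may close. The iCLIP interval of CDKN3 (0.0116 to 0.394) lay below its RNA-seq ratio (0.728). The assays used cells of different genotype, RNA-seq had no replicates, and the difference between assays was not tested.

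**Figure D3:**
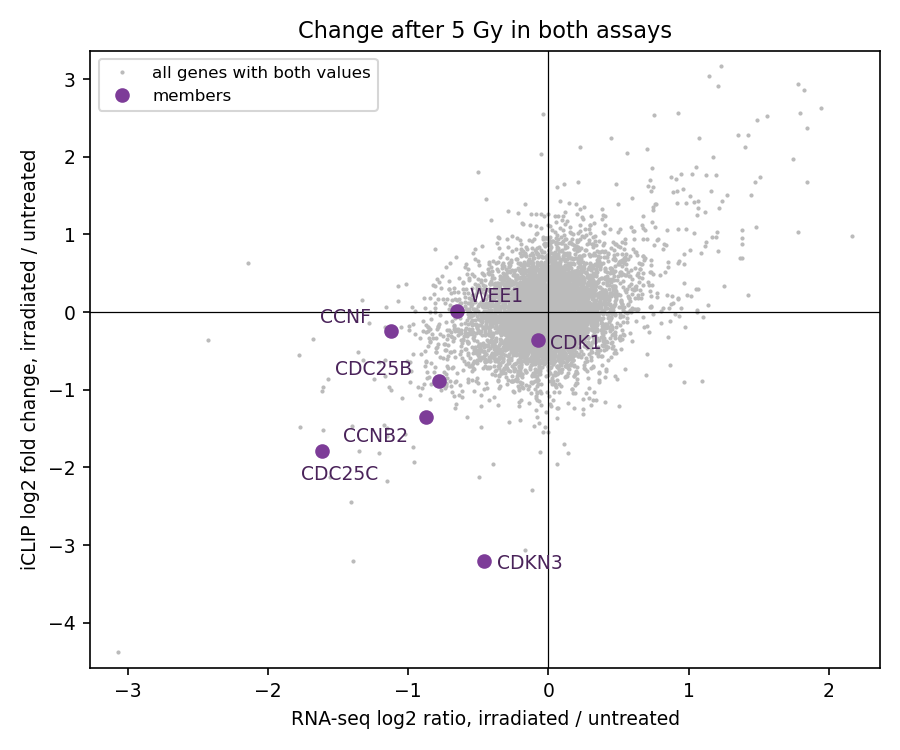
The iCLIP log2 fold change (vertical) against the RNA-seq log2 ratio (horizontal), both irradiated over untreated, for 7089 genes with both values (grey) and 7 members (purple). CDC25C lies lowest among the members in RNA-seq (-1.62) and CDKN3 in iCLIP (-3.20), while WEE1 (0.02), CCNF (-0.24) and CDK1 (-0.36) lie nearest to 0 in iCLIP.

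The genes whose pair of changes lay nearest to the members' median pair (-0.89 in iCLIP and -0.78 in RNA-seq, both log2, 7 members) were sought among 7089 others, by straight-line distance over these 2 values. The nearest 5 were ROR1, an orphan receptor of the receptor tyrosine kinase family, SERAC1, LMCD1, NUF2, a subunit of the kinetochore NDC80 complex, and AKNA. Their distances were 0.0528 to 0.0696 log2 units, and the members' own distances reached 2.34. ROR1 had 294 and 556 iCLIP counts in irradiated and 1276 and 1224 in untreated libraries (log2 fold change -0.94, edgeR adjusted p = 9.86e-05). LMCD1 passed too (edgeR adjusted p = 0.00554), and SERAC1, NUF2 and AKNA did not. Whether the number of counts set which of these genes passed was not tested.

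Most of the listed members were sparse in the TIRR libraries relative to their RNA level. The iCLIP share of gene counts was divided by the RNA-seq share of the same treatment, with 0.5 added to each count, for 11385 genes with at least 50 untreated RNA-seq counts that an iCLIP table lists. In untreated cells 7 of the 8 members lay below the median of all genes (log2 ratio -0.23). Their own median was -2.47 in irradiated and -2.33 in untreated cells.

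CDC20 had the lowest log2 share ratio, -5.69 ± 2.16 in irradiated and -5.81 ± 0.23 in untreated cells (SD, n = 2 iCLIP libraries each). Its untreated iCLIP share was thus 56.1-fold below its RNA-seq share, and 1.46% of all genes lay lower. CDC25C had the highest of the members, 0.03 ± 2.29 in irradiated and 0.65 ± 0.14 in untreated cells, where it lay above 65.2% of all genes. Between them lay WEE1 (-0.85 ± 0.49 in irradiated, -1.35 ± 0.19 in untreated), CDK1 (-2.49 ± 0.03 and -2.21 ± 0.53), CCNF (-1.52 ± 0.05 and -2.34 ± 0.24) and CDC25B (-2.45 ± 0.32 and -2.35 ± 0.26). CDKN3 (-5.10 ± 1.13 in irradiated, -2.32 ± 0.17 in untreated) and CCNB2 (-4.31 ± 2.25 and -2.89 ± 0.31) had irradiated libraries with 0 counts, whose ratios rest on the added 0.5.

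The share ratio moved with gene length: across the 11385 genes, Spearman's rho with annotated length was 0.636, a description over genes that share the same libraries. CDC20 was the shortest of the 8 (4.22 kb) and CDC25C the longest (53.1 kb). Among the 1586 genes within 2-fold of its length, 3.66% lay below CDC20, and among 4184 genes within 2-fold of its length, 64.4% lay below CDC25C. For the others, the same share in untreated cells was 14.1% (CCNB2), 16.3% (CCNF), 20.2% (CDKN3), 22.3% (CDC25B), 27.4% (CDK1) and 39.9% (WEE1). Per kb, the iCLIP levels of the members in untreated libraries ran between 0.595 ± 0.0579 (CDC25C) and 1.89 ± 0.340 counts per 1000000 gene counts and kb (CDC25B; SD, n = 2 each). CDC25B and CDK1 (1.68 ± 0.623) overlapped, as did each neighbouring pair in the order WEE1, CDC20, CCNF, CCNB2 and CDKN3, so these neighbours could not be ranked. RNA-seq levels per kb of the same 8 genes spanned 0.386 to 66.7 in untreated cells. Not divided by length, these RNA-seq levels spanned less, 20.6 (CDC25C) to 283 CPM (CDC20).

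**Figure D4:**
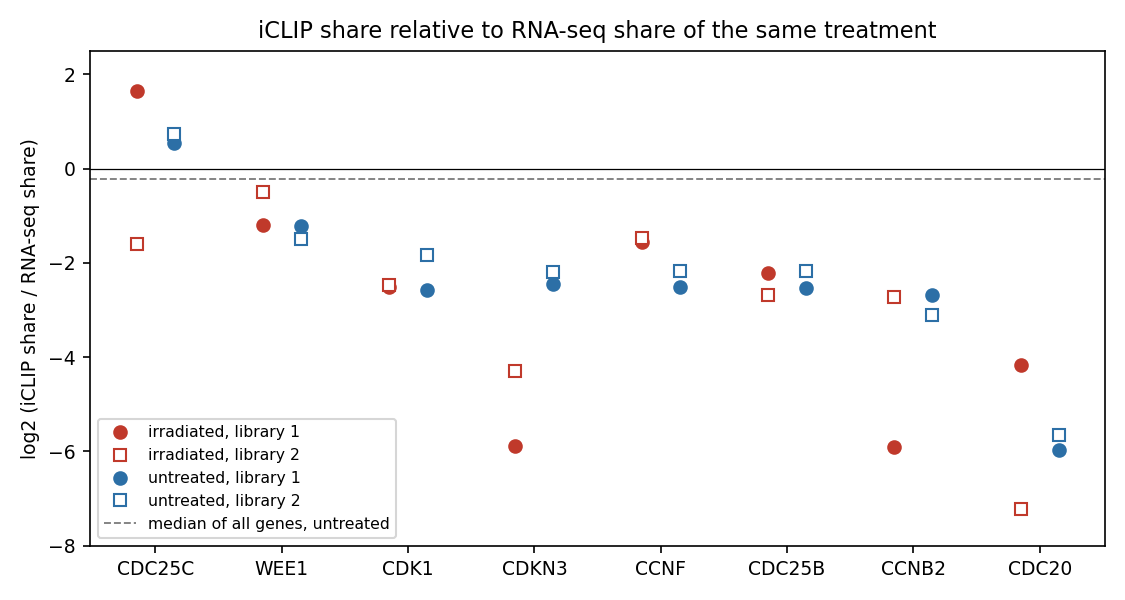
Log2 ratio of the iCLIP share to the RNA-seq share of the same treatment for the 8 listed members, with 1 point per iCLIP library (circles library 1, squares library 2; irradiated left of untreated), ordered by the untreated mean. Only CDC25C lies above the dashed median of all genes in untreated cells, and the irradiated pairs of CCNB2, CDKN3, CDC20 and CDC25C are spread widely, each with a library of 0 to 2 counts.

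The promoters are shown because the members include textbook genes of G2 and M phase. In G2 and M phase genes, the CHR element (sought here as TTTGAA and as the variant TTCGAA) is bound by the MuvB complexes and CCAAT boxes by NF-Y. These letters were sought on both strands in the RefSeq promoter windows (GRCh38.p14, 300 bases that span an annotated start), 1 window per gene at its outermost start. Windows were found for 9 of the 10 members, all but WEE1. A CCAAT box was found in 7 of the 9, against 36.1% of 24882 promoters, and at least 2 in 5 of the 9, against 11.5%. TTTGAA was found in 5 of the 9, against 15.7%, and TTCGAA in 1 of the 9 (CCNF), against 1.46%. A CCAAT box together with either CHR form was found in 5 of the 9, against 6.75%. These matches are descriptions and not shown binding sites. Forms of the CHR element other than TTTGAA and TTCGAA were not sought, so a window without a match may hold another form.

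The sequences below are the windows of the B-type cyclin pair, of CDC20 and CDKN3, and of the inner annotated starts of CDK1 and CDC25C, since the outermost and inner windows of those genes differed. Each is written 5′ to 3′ on the strand of the gene, with matches to the 3 motifs in capitals (TTCAAA and ATTGG are the same motifs on the other strand), and no matches overlapped.
CCNB1: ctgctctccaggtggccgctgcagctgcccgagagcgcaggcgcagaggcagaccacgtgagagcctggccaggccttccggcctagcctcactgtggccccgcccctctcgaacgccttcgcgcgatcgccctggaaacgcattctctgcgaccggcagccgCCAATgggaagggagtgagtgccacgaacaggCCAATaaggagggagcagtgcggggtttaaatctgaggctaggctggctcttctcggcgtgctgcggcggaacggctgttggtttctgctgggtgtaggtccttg
CCNB2: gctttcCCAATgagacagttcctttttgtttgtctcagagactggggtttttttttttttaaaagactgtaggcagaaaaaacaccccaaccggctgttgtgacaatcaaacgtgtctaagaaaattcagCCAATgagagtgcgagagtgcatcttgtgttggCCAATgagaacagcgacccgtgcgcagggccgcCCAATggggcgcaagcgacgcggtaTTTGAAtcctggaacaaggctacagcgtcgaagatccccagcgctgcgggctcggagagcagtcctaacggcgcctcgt
CDC20: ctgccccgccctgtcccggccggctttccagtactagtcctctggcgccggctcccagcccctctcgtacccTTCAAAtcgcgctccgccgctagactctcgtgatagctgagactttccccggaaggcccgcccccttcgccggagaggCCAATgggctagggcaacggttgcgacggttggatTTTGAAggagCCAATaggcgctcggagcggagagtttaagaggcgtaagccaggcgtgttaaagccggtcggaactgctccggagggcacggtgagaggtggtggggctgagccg
CDKN3: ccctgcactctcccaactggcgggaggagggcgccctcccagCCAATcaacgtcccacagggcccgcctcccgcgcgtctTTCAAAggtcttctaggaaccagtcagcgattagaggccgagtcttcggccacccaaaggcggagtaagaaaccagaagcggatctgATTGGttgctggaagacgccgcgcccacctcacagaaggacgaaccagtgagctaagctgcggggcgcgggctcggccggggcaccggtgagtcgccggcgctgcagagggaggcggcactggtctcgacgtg
CDK1, inner start: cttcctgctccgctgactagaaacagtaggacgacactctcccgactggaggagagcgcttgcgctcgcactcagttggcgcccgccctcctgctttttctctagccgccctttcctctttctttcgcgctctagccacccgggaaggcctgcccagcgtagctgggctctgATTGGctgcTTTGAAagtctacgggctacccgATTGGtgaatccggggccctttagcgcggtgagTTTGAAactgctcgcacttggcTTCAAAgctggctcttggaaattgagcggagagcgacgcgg
CDC25C, inner start: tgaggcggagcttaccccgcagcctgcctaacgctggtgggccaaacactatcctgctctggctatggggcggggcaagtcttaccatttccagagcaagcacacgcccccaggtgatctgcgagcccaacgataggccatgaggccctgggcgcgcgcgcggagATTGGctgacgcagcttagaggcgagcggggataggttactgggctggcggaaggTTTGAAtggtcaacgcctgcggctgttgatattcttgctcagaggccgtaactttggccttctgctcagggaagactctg

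In CCNB2 (chr15:59104896-59105195, plus strand) CCAAT boxes began at positions -120, -87 and -54 from the start, 33 bases apart, with a further box at -244, and TTTGAA began at -29. CCNB1 (chr5:69166900-69167199, plus strand) had CCAAT boxes at -87 and -55, 32 bases apart, and no TTTGAA in this window. CDC20 (chr1:43358731-43359030, plus strand) had CCAAT boxes at -100 and -55, TTTGAA at -65 and its reverse at -178. CDKN3 (chr14:54396757-54397056, plus strand) held a CCAAT box at -208, a reverse one at -83 and a reverse TTTGAA at -170.

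CDK1, whose RNA-seq ratio was nearest to 1, had 2 reverse CCAAT boxes and 3 TTTGAA matches on either strand at its inner start (chr10:60778228-60778527, plus strand), and 1 of each at the outermost start. CDC25C, with the lowest ratio, had no match at its outermost start and, at an inner start (chr5:138331755-138332054, minus strand), a single reverse CCAAT box at -85 and TTTGAA at -30. Another inner start of CDC25C (chr5:138331828-138332127, minus strand) had a CCAAT box at -200, reverse ones at -217 and -12, and TTTGAA beginning 44 bases into the transcript. The outermost window of CDC25B held no match either. An inner start held a reverse CCAAT box at -73 with TTCGAA at -38 (chr20:3796060-3796359, plus strand). Another held a reverse CCAAT box at -169 (chr20:3795539-3795838, plus strand). A further inner start of CDC25B (chr20:3799798-3800097, plus strand) held no match, nor did a further one of CDC25C (chr5:138338292-138338591, minus strand).

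**Figure D5:**
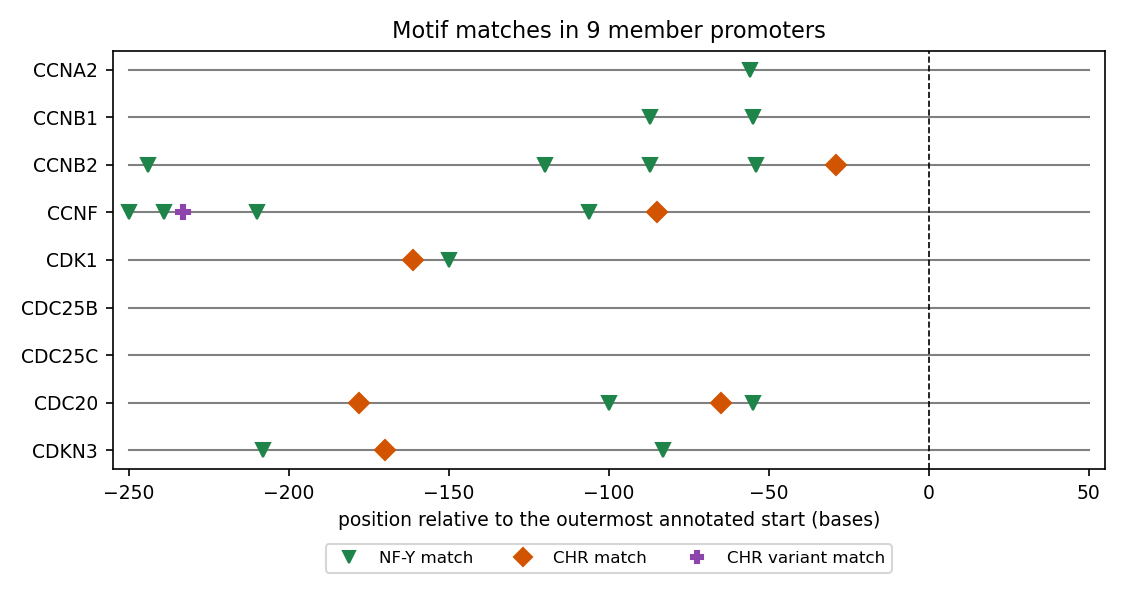
Positions of motif matches in the outermost promoter windows of 9 members (bases from the annotated start, dashed line; triangles NF-Y, diamonds CHR, plus sign CHR variant). CCNB2 and CCNF hold 4 NF-Y matches each, and CDC25B and CDC25C hold none in these windows. Only TTTGAA and TTCGAA were sought for the CHR element.

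The last comparison placed the members among 80 further genes of the same circuit, in 6 lists. Of 49 tested in iCLIP, 1 was higher and 2 were lower in irradiated libraries, beside 2.43% and 1.07% of all genes. Of 76 with enough RNA-seq counts, 1 was higher and 3 were lower by the size rule, beside 0.863% and 0.624% of all genes. With so few genes per list, counts of 0 or 1 lie near these shares and are not results about a list. All of the genes that passed belong to the list of CDK1 activity control. Its 13 tested genes had a median iCLIP log2 fold change of -0.07 and its 17 measured genes a median RNA-seq log2 ratio of -0.16.

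CDKN1A, which encodes the CDK inhibitor p21, rose 7.63-fold in iCLIP, with 259.7 ± 7.11 CPM in irradiated and 33.9 ± 10.8 CPM in untreated libraries (SD, n = 2 each, edgeR adjusted p = 9.6e-08). Its RNA-seq ratio was 3.43 (95% counting interval 3.28 to 3.60). AURKA, the kinase that with its cofactor BORA switches on PLK1 before mitosis, had 3 and 11 iCLIP counts in irradiated and 47 and 48 in untreated libraries and fell (log2 fold change -2.12 ± 0.36, SE, edgeR adjusted p = 0.00168). BORA had 1 and 6 counts in irradiated and 20 and 30 in untreated libraries and fell too (log2 fold change -2.18 ± 0.53, SE, edgeR adjusted p = 0.0260). BORA passed the filter on low counts through its untreated libraries only, so a difference was built into its being tested, and AURKA passed it through 1 irradiated and both untreated libraries. The edgeR adjusted p of BORA was 0.0510 without irradiated library 1 and 0.267 without untreated library 2. In RNA-seq, AURKA was 2.94-fold, BORA 2.22-fold and PLK1 4.15-fold lower, and PLK1 stood in no iCLIP table.

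PKMYT1, the membrane-bound relative of WEE1, passed in neither assay. It had 23 and 33 iCLIP counts in irradiated and 41 and 41 in untreated libraries (log2 fold change 0.09, edgeR adjusted p = 0.925) and an RNA-seq ratio of 0.846 (0.794 to 0.901). MNAT1, a subunit of the kinase that activates CDKs, had a log2 fold change of -0.07 in iCLIP (edgeR adjusted p = 0.893) and an RNA-seq ratio of 1.03.

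In either direction 3.50% of all genes passed in iCLIP, 14.5% had an unadjusted p under 0.05 there, and 1.49% passed the size rule in RNA-seq, and the counts of the other 5 lists stand beside these shares. Of the anaphase-promoting complex and its regulators, 0 of 10 tested genes passed in iCLIP with edgeR (1, ANAPC1, at an unadjusted p under 0.05, median log2 fold change -0.27) and 0 of 21 passed in RNA-seq (median log2 ratio -0.04). CDC20's relative FZR1 had a log2 fold change of -0.02 in iCLIP (edgeR adjusted p = 0.981) and an RNA-seq ratio of 0.754 (0.675 to 0.841). The core subunits CDC16 and CDC27 had RNA-seq ratios of 0.973 and 0.813. BUB1B, UBE2C and UBE2S, which did not pass the size rule, had ratios of 0.513, 0.519 and 0.598, within the range of the members. The ratio was under 1 for 14 of the 21 genes. In the Greatwall and PP2A-B55 list, which holds the phosphatase that opposes CDK1, 0 of 7 tested genes passed in iCLIP with edgeR (1, PPP2R2C, at an unadjusted p under 0.05) and 0 of 10 in RNA-seq. ENSA, the PP2A-B55 inhibitor, had an RNA-seq ratio of 0.956 and the B55 subunit genes PPP2R2A and PPP2R2C ratios of 1.07 and 1.07.

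Of the MuvB, DREAM, FOXM1 and NF-Y list 0 of 12 tested genes passed in iCLIP with edgeR (0 at an unadjusted p under 0.05, median log2 fold change -0.17) and 0 of 16 in RNA-seq (median log2 ratio -0.15). LIN52, a MuvB subunit, had an RNA-seq ratio of 0.916, TFDP2, a partner of E2F factors, 0.751 and NFYC, an NF-Y subunit, 1.01. Of the G1 and S phase cyclins and kinases 0 of 5 passed in iCLIP with edgeR (2, CCND3 and CDK2, at an unadjusted p under 0.05) and 0 of 8 in RNA-seq (median log2 ratio -0.00695). CCND3, a D-type cyclin, had 25 and 58 iCLIP counts in irradiated and 99 and 96 in untreated libraries (log2 fold change -0.61, edgeR adjusted p = 0.149), but an RNA-seq ratio of 1.12 (1.01 to 1.24). CCNE1 and CDK6, which drive S phase entry, had RNA-seq ratios of 0.927 and 1.07.

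Of the genes around the cyclin F ubiquitin ligase, 0 of 3 passed in iCLIP with edgeR (0 at an unadjusted p under 0.05) and 0 of 5 in RNA-seq. In these 5 lists DESeq2 called 0 of the genes to which it gave an adjusted p. An adjusted p was given to 2 of 10 tested genes of the anaphase-promoting complex list and 3 of 7 of the Greatwall list. For the MuvB, G1 and S phase, and cyclin F lists it was given to 8 of 12, 2 of 5 and 1 of 3. RRM2, a ribonucleotide reductase subunit that cyclin F marks for destruction, had 1722 ± 213 CPM in irradiated and 1598 ± 113 CPM in untreated libraries (SD, n = 2 each, edgeR adjusted p = 0.772) and an RNA-seq ratio of 0.956 (0.921 to 0.992). CCP110, a centriole protein that is also a cyclin F substrate, had a log2 fold change of 0.71 in iCLIP (edgeR adjusted p = 0.527) and an RNA-seq ratio of 1.29 (1.15 to 1.45). CUL1, the scaffold of the ligase, had an RNA-seq ratio of 0.861.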

How the data were processed

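Each deposited table has 1 line per gene with at least 1 count, plus 1 intergenic line. A gene missing from a table but listed in another of the same assay was given a count of 0 there. The authors deposited raw cDNA counts per gene, the percent of all counts in the library and a gene length in bases, per the file headers. The genome build is hg38 and kallisto 0.44.0 is named for RNA-seq, per the submitters' processing notes. No source used here names the aligner, the duplicate removal or the strand setting. The intergenic line (30.6% to 31.3% of iCLIP and 44.4% of RNA-seq counts) was left out of library sizes and tests.

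Irradiated and untreated iCLIP libraries (2 each) were compared with the edgeR 4.0.16 quasi-likelihood test in R 4.3.3, two-sided, with TMM scaling, filterByExpr and Benjamini-Hochberg adjustment over 9230 genes at 0.05. The SE is the log2 fold change divided by the root of the F statistic. RNA-seq ratios used TMM scaling and exact conditional 95% intervals. Intervals and limits for a count of 0 cover counting error only. The test was checked on simulated counts with a fixed spread between replicates, and the intervals on simulated counts with counting error only. These checks do not show how either performs at the spread of these libraries. DESeq2 1.42.0 was an alternative. Python 3.11.15, numpy 2.4.6, pandas 2.3.3, scipy 1.17.1 and matplotlib 3.10.9 were used.

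The members and lists were chosen with earlier results of these data known. Named are all members, from each list the genes past a threshold and up to 3 with the most iCLIP counts (6 at most), and the 5 genes nearest to the members in both changes. BUB1B, UBE2C and UBE2S were named besides, for their low RNA-seq ratios. Promoters came from RefSeq, and coordinates are those of its GRCh38.p14 table.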

Additional observations from a re-analysis of the deposited data

How the results depend on the processing

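Of the 7 tested members, 1 passed in iCLIP with edgeR (CDKN3), as with library totals. With no filter on low counts 2 passed (CDC25C with adjusted p = 0.0242, and CDKN3), with the stricter filter 0 of 3 (edgeR, 2 of them at an unadjusted p under 0.05, with CDKN3 not tested), and with 1 library left out 0 to 1, where the call without irradiated library 1 was CDC25C and not CDKN3. Of the 7, 3 had an unadjusted p under 0.05, beside 14.5% of all genes. Of these 3, CDKN3 passed the filter on low counts through its untreated libraries only and CDC25C through 1 irradiated and both untreated libraries. The share is therefore descriptive. DESeq2 gave no member an adjusted p (independent filtering), and its unadjusted p for CDKN3 was 0.0116. Over all genes edgeR called 323; DESeq2 called 122, and leaving out 1 library gave 186 (without untreated library 1) to 421. Of the circuit genes, 3 passed, or 1 with DESeq2 (CDKN1A, while AURKA and BORA had no adjusted p there) and 2 to 3 with 1 library left out. The share of rises among all calls was 69.3%, 58.2% with library totals and 86.1% with DESeq2.

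The replicate numbers give no known pairing, and same-numbered libraries deviated in opposite directions (correlation -0.246 over 3070 genes). With a replicate block 190 genes were called, and CDKN3 remained the 1 member called, after the same filter on low counts. With crossed pairing, chosen after seeing the data, 669 genes, 2 members and 4 circuit genes were called. In RNA-seq 193 genes passed the size rule, or 98 with a minimum of 500 counts, and 4 members, or 3 with that minimum. Of the 16 share ratios, 14 were below 0 under either alternative, as many as the main setting gave. With 2 added to each count, 4 of the 16 shifted by more than the SD of the 2 iCLIP libraries. With intergenic counts in the shares, 9 of the 16 did. For CDC20 in untreated cells the log2 share ratio was -5.81, or -5.35 with 2 added and -5.49 with intergenic counts. The low counts limit every single member in iCLIP.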

Other observations

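CCNA2 and CCNB1 stand in no iCLIP table, but genes beside them do. EXOSC9, an exosome subunit gene that overlaps CCNA2, had 9 and 15 iCLIP counts in irradiated and 11 and 13 in untreated libraries. BBS7, a ciliary gene 0.446 kb away from CCNA2, had 26 and 51 counts in irradiated and 33 and 35 in untreated libraries. CENPH, a centromere protein gene 11.3 kb away from CCNB1, had 5 and 10 counts in irradiated and 6 and 4 in untreated libraries.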
